A study of Mus musculus with 12 samples.

Results

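The genes described here are 5 DNA polymerases that copy damaged templates, Polh, Poli, Polk, Rev1 and Rev3l, and 3 genes of DNA mismatch repair, Pms1, Pms2 and Msh6. They are 8 of the 17550 gene symbols on the arrays and are read by 160 of the 221417 main probesets that carry a symbol. Pms1 and Polh were chosen because they were lower in KIS-ko than in wildtype brains of this same series, and the other 6 were added as their paralogs and partners. The differences of Pms1 and Polh between the genotypes are therefore descriptions with no test, and tests of that comparison are given for the other 6 genes only. The question is how far the paralogs and partners move with the pair, gene by gene and probeset by probeset.

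KIS is the protein kinase encoded by Uhmk1. Whole brains came from 12 newborn female mice, 6 of them wildtype (KIS +/+) and 6 KIS-ko (KIS -/-). The study used 6 pairs of littermates, with 1 of each genotype in a pair. The pairs used here, called litters 1 to 6, are neighbours in the order of the samples. Which brains form a pair was not tested. The knockout is of the whole animal, and the line had been backcrossed to C57BL6/N. Total RNA of each brain was hybridized to 1 Affymetrix Mouse Exon 1.0 ST array, on which the probes of an exon, or of a part of it, form a probeset. RNA of a whole brain mixes all of its cells, so that fewer cells expressing a gene and less RNA per cell cannot be told apart.

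As background, replicative polymerases stall at many damaged bases. Translesion synthesis passes such sites with polymerases of looser active sites, most of them recruited by ubiquitinated PCNA, the sliding clamp. Polymerase eta (Polh) copies past ultraviolet-induced thymine dimers and is the gene lost in the variant form of xeroderma pigmentosum, polymerase kappa (Polk) extends past bulky adducts, and polymerase iota (Poli) is a close paralog of eta with low fidelity. Rev1 is a scaffold to which the others bind, and Rev3l is the catalytic subunit of polymerase zeta, which extends from distorted primer ends and is needed for mouse embryonic development. Mismatch repair removes bases that were misincorporated during replication. Msh6 belongs to the complex that recognizes mismatches, and Pms2 is the endonuclease that nicks the strand to be removed. Pms1 is a MutL homolog like Pms2, and its part in repair is less well known. Both processes are tied to DNA replication, and the newborn brain still holds dividing progenitors.

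The upstream sequences of Pms1 and Polh, the genes chosen for their difference, are printed with those of Pms2 and Polk. Among the 8 genes, these are the paralogs whose differences were nearest to theirs within the same process. Each is the run of 250 bases before the annotated start in the RefSeq promoter table of GRCm38.p6, in the direction of transcription, and capitals mark matches to motifs searched on both strands. The motifs were the CCAAT box (CCAAT), the GC box (GGGCGG), the NRF1 core (CGCATGCG), an E2F site (TTTCCCGC) and an ETS site (CCGGAAG). The table matched 6 of the 8 genes, and Poli and Rev3l have no entry in it.
Pms1, chr1:53297029-53297278, minus strand: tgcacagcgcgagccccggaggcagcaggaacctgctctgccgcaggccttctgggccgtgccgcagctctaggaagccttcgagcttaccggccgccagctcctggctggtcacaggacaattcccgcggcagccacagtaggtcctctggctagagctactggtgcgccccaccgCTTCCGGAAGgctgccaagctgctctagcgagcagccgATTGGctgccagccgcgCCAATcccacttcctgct
Pms2, chr5:143909751-143910000, plus strand: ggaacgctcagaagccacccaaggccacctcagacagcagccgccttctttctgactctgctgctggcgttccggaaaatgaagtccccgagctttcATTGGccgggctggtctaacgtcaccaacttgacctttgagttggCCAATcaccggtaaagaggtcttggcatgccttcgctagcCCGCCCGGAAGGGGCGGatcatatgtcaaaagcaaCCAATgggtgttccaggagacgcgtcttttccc
Polh, chr17:46202642-46202891, minus strand: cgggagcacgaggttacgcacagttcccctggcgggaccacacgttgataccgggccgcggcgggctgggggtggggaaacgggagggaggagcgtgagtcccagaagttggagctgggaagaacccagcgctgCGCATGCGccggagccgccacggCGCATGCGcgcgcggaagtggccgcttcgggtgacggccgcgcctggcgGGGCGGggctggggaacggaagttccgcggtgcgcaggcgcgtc
Polk, chr13:96542580-96542829, minus strand, the more upstream of 2 listed starts: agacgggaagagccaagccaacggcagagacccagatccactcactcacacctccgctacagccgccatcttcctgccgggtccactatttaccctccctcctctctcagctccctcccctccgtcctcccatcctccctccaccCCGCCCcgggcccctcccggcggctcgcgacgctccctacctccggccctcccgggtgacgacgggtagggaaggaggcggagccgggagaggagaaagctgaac
Upstream of Pms1 stood 2 CCAAT boxes and 2 ETS sites that overlap each other, and no GC box. The Pms2 sequence held 3 CCAAT boxes, 2 GC boxes and 1 ETS site, of which 1 pair overlaps. A CCAAT box was present in 33.8% and an ETS site in 6.91% of all 32851 sequences of the same length. Polh carried 2 NRF1 cores, found in 1.55% of all sequences, and 1 GC box, found in 32.7%, whereas Polk had 1 GC box only. Rev1 had 2 GC boxes, and Msh6 had 5 with 1 CCAAT box. An E2F site, present in 0.895% of all sequences, was matched in none of the 6. The G and C content was 66.8% for Pms1, 56.8% for Pms2, 73.2% for Polh and 68.0% for Polk, against a median of 52.4% over all sequences. These matches describe the letters only, and no binding was measured.

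A gene value was the mean over the kept probesets of a gene of log2(signal + 16), the signal being the linear intensity deposited by the authors, and a difference is KIS-ko minus wildtype on this log2 scale, which understates the change of dim genes. Differences were tested with limma in a model with a term for each litter, and p-values were adjusted by Benjamini-Hochberg over the 17279 genes. The targeted gene checks the labels. Uhmk1 was 10.97 ± 0.057 in wildtype and 8.85 ± 0.15 in KIS-ko brains (SD, n = 6 each), with no overlap. It was the 1 gene called at an adjusted p of 0.05, or 0.00579% of all genes. KIS-ko arrays were slightly dimmer as a whole. The median gene differed by -0.036, and 69.8% of all genes had a difference below 0. At an unadjusted p of 0.05, 4.34% of all genes were lower and 1.82% higher, a split of 750 against 315 genes that turned to 293 against 804 when each array was centred on its median, and to 439 against 779 when the arrays were quantile-normalized again. Each gene below is therefore also given against the median gene of its own litter.

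Pms1, the mismatch repair gene chosen for its difference, lay between 7.51 and 7.77 in wildtype brains (median 7.70) and between 7.33 and 7.53 in KIS-ko brains (median 7.47). All 6 KIS-ko brains were below their wildtype littermates, and the ranges overlapped only because the wildtype brain of litter 5 lay under the KIS-ko brains of litters 2 and 4. The means were 7.67 ± 0.099 and 7.45 ± 0.080 (SD, n = 6), a difference of -0.22 (standard error 0.050), or -14.3% on the scale of signal + 16. The litters differed by -0.35 to -0.080. Against the median gene of each litter, Pms1 stood at -0.19 ± 0.052 (SD, n = 6 litters), again lower in 6 of 6 litters, and this spread was the smallest of the 8 genes. The weighted mean of KIS-ko over wildtype ratios described in the study's methods, computed here from the probesets, was 0.889 ± 0.046 (SD, n = 6 litters). The table lists Pms1 on the minus strand of chromosome 1 from 53246098 to 53353838. Uhmk1 is on the same chromosome, 119 Mb away. All positions of genes and probesets are given as the table has them, in a build that is not named there, and they cannot be set beside the promoter coordinates above.

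Pms2, its closest paralog, ran from 8.95 to 9.10 in wildtype brains (median 9.07) and from 8.80 to 9.10 in KIS-ko brains (median 8.89). The KIS-ko brain of litter 4 was the highest of all 12, and the ranges overlapped throughout the wildtype range. It is listed on the plus strand of chromosome 5 from 144672826 to 144692020. Pms2 was lower in 5 of 6 litters, with a difference of -0.12 and a standard error of 0.059, and did not pass limma's test (adjusted p = 0.685). Against the median gene of each litter, Pms2 stood at -0.080 ± 0.11 (SD, n = 6 litters), lower in 4 of 6 litters. Pms1 differed more than Pms2 in all 6 litters, by -0.11 ± 0.066 (SD, n = 6), from -0.21 to -0.023. Since Pms1 was chosen on this comparison, its distance from Pms2 is a description.

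Msh6, which recognizes the mismatch, had values of 8.30 to 8.60 in wildtype brains (median 8.45) and 8.14 to 8.62 in KIS-ko brains (median 8.36). Its lowest and its highest brain were both KIS-ko, from litters 6 and 4. The gene is listed on the plus strand of chromosome 17 from 88374445 to 88390221. The difference of -0.063 was no larger than its standard error of 0.074 (adjusted p = 0.760 from limma), 3 of 6 litters were lower, and without litter 6 the difference was 0.016. Relative to the median gene it was -0.025 ± 0.17 (SD, n = 6 litters).

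**Figure D1:**
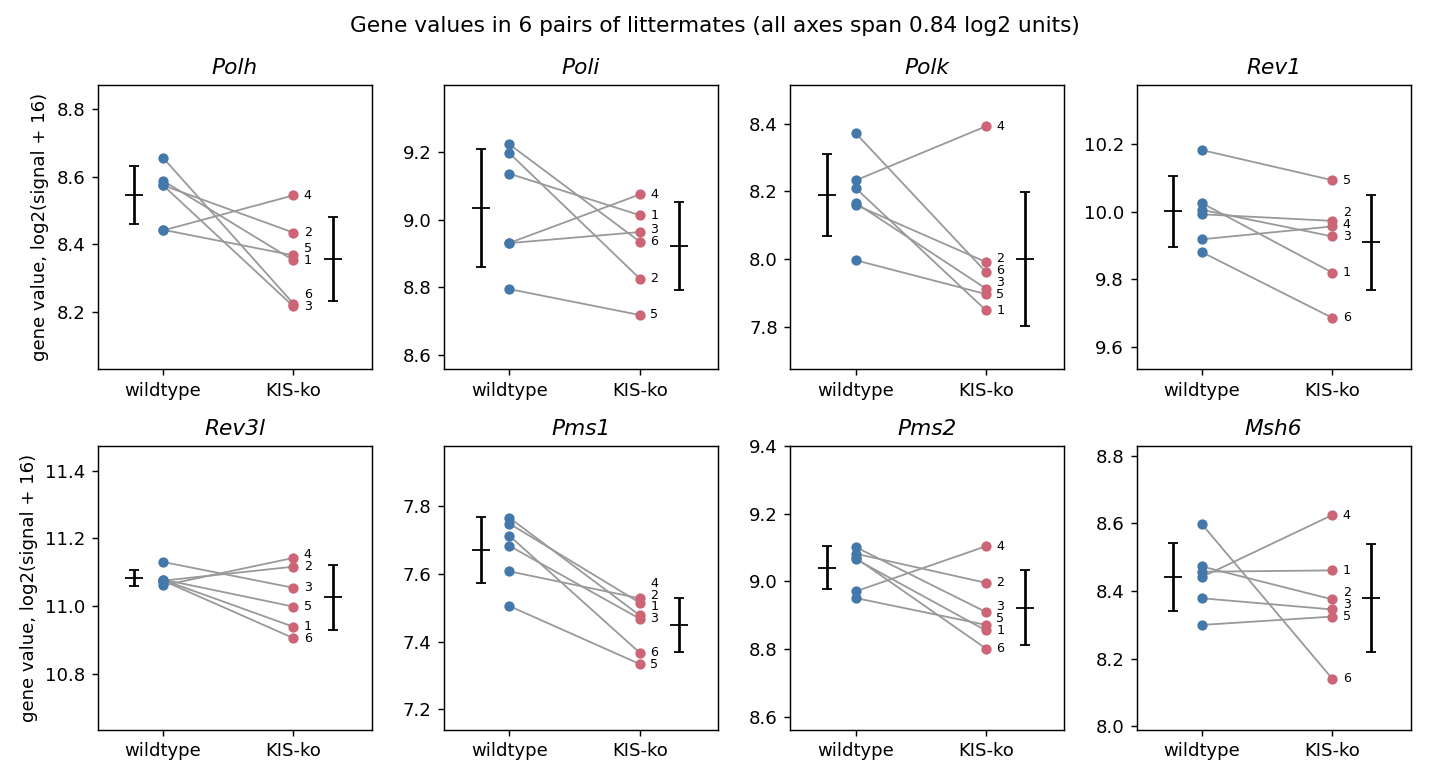
Gene values, the mean over probesets of log2(signal + 16), of the 8 genes in wildtype (left) and KIS-ko brains (right), with lines joining littermates and digits naming the litter. Black bars are the mean and SD of 6 brains. All 6 lines of Pms1 point down, and in each of the other 7 genes the line of litter 4 points up.

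Polh, the polymerase chosen for its difference, had values of 8.44 to 8.66 in wildtype brains (median 8.58) and 8.22 to 8.55 in KIS-ko brains (median 8.36). Of the KIS-ko brains, 5 were below their littermates and below the lowest wildtype brain, and that of litter 4 was above its littermate and inside the wildtype range. The means were 8.55 ± 0.086 and 8.36 ± 0.13 (SD, n = 6), a difference of -0.19 (standard error 0.070), or -12.3% on the scale of signal + 16. The litters ran from -0.43 to 0.10. Against the median gene, Polh stood at -0.15 ± 0.16 (SD, n = 6 litters), lower in 5 of 6 litters, a spread about as large as the difference. The ratio weighted as in the methods was 0.887 ± 0.092 (SD, n = 6 litters). The gene is listed on the minus strand of chromosome 17 from 46309263 to 46339484.

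Polk, which was not chosen for its difference, was as far from wildtype as Polh. It is listed on the minus strand of chromosome 13 from 97250924 to 97312466. Polk ran from 7.996 to 8.37 in wildtype brains (median 8.19) and from 7.85 to 8.39 in KIS-ko brains (median 7.94). The KIS-ko brain of litter 4 was the highest of all 12, and the other 5 KIS-ko brains lay below the lowest wildtype brain. The difference was -0.19 (standard error 0.072), lower in 5 of 6 litters. Against the median gene of each litter, Polk stood at -0.15 ± 0.16 (SD, n = 6 litters), also lower in 5 of 6 litters. Its unadjusted p of 0.0255 is below 0.05, as for 4.34% of all genes in that direction, and the adjusted p was 0.685 from limma, so that Polk was not called. Polk was the single gene of the 6 tested that passed at the unadjusted p. Within litters Polh minus Polk was -0.00028 ± 0.080 (SD, n = 6 litters), with Polh the lower in 3 of 6. Over the 12 arrays, values centred on the array median were taken as deviations from the genotype means, which leaves the difference between genotypes out. On these, Polh gave r = 0.523 with Polk, 0.753 with Pms2, 0.587 with Msh6 and 0.493 with Rev3l. It gave 0.363 with Rev1, 0.328 with Pms1 and -0.258 with Poli.

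Poli, the close paralog of Polh, had values of 8.80 to 9.22 in wildtype brains (median 9.03) and 8.72 to 9.08 in KIS-ko brains (median 8.95). The ranges overlapped over most of their width. Poli was lower in 4 of 6 litters, with a difference of -0.11 (standard error 0.069) and an adjusted p of 0.685 from limma. Against the median gene it stood at -0.077 ± 0.13 (SD, n = 6 litters). It is listed on the minus strand of chromosome 18 from 70668388 to 70689975. Polh minus Poli was -0.076 ± 0.20 (SD, n = 6 litters), with Polh the lower in 4 of 6. Since Polh was chosen on this comparison, its distance from Poli is a description with no test.

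Rev1, the scaffold, ran from 9.88 to 10.18 in wildtype (median 9.998) and from 9.69 to 10.09 in KIS-ko brains (median 9.94). Littermates stayed close, since litter 5 held the highest and litter 6 the lowest brain of each genotype. The difference was -0.091 (standard error 0.050, unadjusted p = 0.0986, adjusted p = 0.685 from limma) with 5 of 6 litters lower. Rev1 is listed on the minus strand of chromosome 1 from 38113128 to 38186436, 134 Mb from Uhmk1. Rev3l, the catalytic subunit of polymerase zeta, was tight in wildtype brains, from 11.06 to 11.13 (median 11.08), and ran from 10.91 to 11.14 in KIS-ko brains (median 11.03). It was lower in 4 of 6 litters, with a difference of -0.057 (standard error 0.051) that did not pass limma's test (adjusted p = 0.713). Rev3l is listed on the plus strand of chromosome 10 from 39452023 to 39594934. Relative to the median gene, Rev1 stood at -0.054 ± 0.075 and Rev3l at -0.020 ± 0.081 (SD, n = 6 litters), so that Rev3l was near the shift of all genes.

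All 8 genes had a negative difference, with a median of -0.12, where 69.8% of all genes did and the median gene was at -0.036. That count includes the pair chosen for it, and the 6 others share the same arrays. None of the 6 tested was called, and 1 of 6 passed the unadjusted threshold as lower and 0 as higher.

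The arrays allow each gene to be read along its exons. Over all genes 66.2% of the probesets had a difference below 0, with a median of -0.040. In Polh 16 of 16 kept probesets were below 0 (median -0.16, from -0.35 to -0.056), although 2 had errors larger than their difference and 3 were lower in no more than 3 of 6 litters. The largest difference was in the next to last probeset at the 3′ end (46309650 to 46309928), and the smallest in the first (46339361 to 46339484). In Pms1 14 of 15 kept probesets were below 0 (median -0.24, from -0.45 to 0.0097), and they were less even. Probesets lower in all 6 litters were 4 of 15 in Pms1 and 2 of 16 in Polh, against 2.12% of all probesets. These counts for Pms1 and Polh rest on the comparison that chose them.

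The lowest probeset of Pms1, at 53246204 to 53246341 and next to last from the 5′ end, had signals of 151, 167, 180, 181, 188 and 192 in the wildtype and of 97.2, 108, 114, 143, 146 and 150 in the KIS-ko brains, in rising order. The difference there was -0.45 (standard error 0.087), the largest among the 15 kept probesets of a gene chosen for being lower. The brightest probeset of Pms1, at 53331918 to 53332040, differed by -0.24 (standard error 0.086) with 6 of 6 litters lower. The next in brightness, at 53253740 to 53254039, had signals of 405 to 540 in wildtype and 445 to 515 in KIS-ko brains, and its difference was 0.0097 (standard error 0.070). The probesets of Pms1 thus gave values from near 0 to well beyond the gene's own -0.22.

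Among the 6 genes that were tested, 18 of 18 probesets of Rev1, 22 of 23 of Polk, 17 of 19 of Pms2, 14 of 16 of Poli, 31 of 37 of Rev3l and 8 of 12 of Msh6 were below 0. None passed limma's test at the adjusted threshold, as 0.00487% of all probesets did, and the lowest adjusted p was 0.676. At the unadjusted p of 0.05 there were 7 lower, 3 in Polk, 2 in Pms2 and 1 each in Rev1 and Rev3l, where 4.72% of all probesets were lower and 1.91% higher. None of the 6 genes had a probeset that passed as higher. The lowest was a Polk probeset at 97254264 to 97254295, with signals of 111 to 185 in wildtype and 86.7 to 146 in KIS-ko brains and lower in 6 of 6 litters (difference -0.46, standard error 0.11, adjusted p = 0.676 from limma). In Rev1 the probeset at 38140556 to 38140613, a bright one, was also lower in 6 of 6 litters (difference -0.21, standard error 0.065, adjusted p = 0.739 from limma). In Msh6 the first probeset from the 5′ end, at 88374445 to 88374488, was higher in the KIS-ko brain of all 6 litters (difference 0.16, standard error 0.079, adjusted p = 0.757 from limma), and the second was at 0.046, while 8 of the other 10 were below 0. No probeset of Msh6 departed from the rest of its gene at the unadjusted p.

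**Figure D2:**
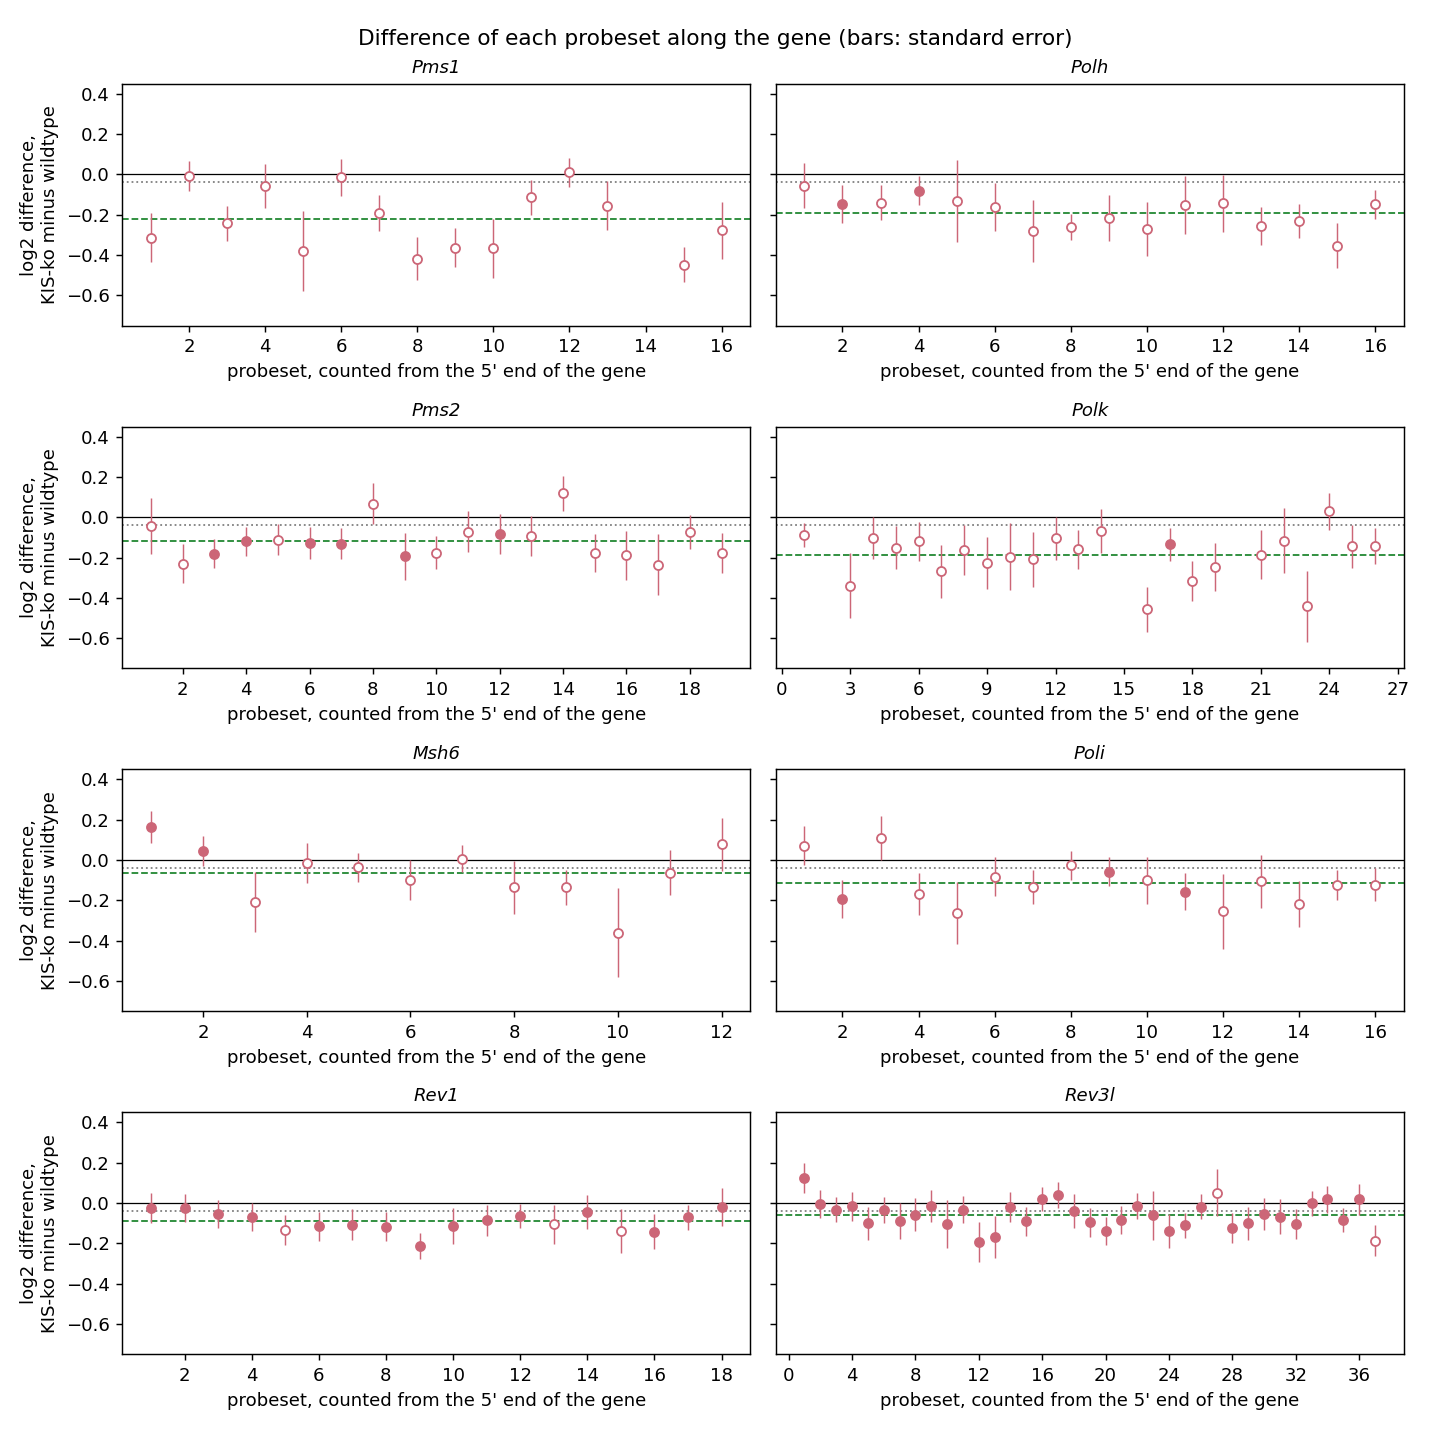
Difference of each kept probeset (KIS-ko minus wildtype, log2 scale) with its standard error, in order from the 5′ end of the gene. Filled points have a mean signal over 713 (95th percentile of intron controls), the green dashed line is the gene's own difference and the dotted line the median probeset of all genes, -0.040. Polh and Rev1 are below 0 at every point, Pms1 scatters widely and Msh6 begins above 0.

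A probeset was also compared with the mean of the other probesets of its gene, which shows whether 1 exon departs from the rest. Of the 6 tested genes no probeset was called by limma at the adjusted p, as 0.000985% of all probesets were, and 5 passed at the unadjusted p, against 6.09% of all. They were 2 of Pms2 and 1 each of Poli, Polk and Rev1, and the lowest adjusted p was 0.748. The Pms2 probesets at 144686638 to 144686796 and 144680378 to 144680466 stood above the rest of the gene by 0.25 and 0.19, and were the 2 probesets of Pms2 with a positive difference. The Poli probeset at 70689432 to 70689654 stood 0.24 above its gene, and that of Polk named above stood at -0.28 against its gene.

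Probesets differed in brightness, which is set here beside their differences. Among 5222 intron control probesets, which mark background, the median signal was 114 and the 95th percentile 713. Above the latter lay 0 of 15 kept probesets of Pms1, 2 of 16 of Polh, 1 of 23 of Polk, 2 of 12 of Msh6, 3 of 16 of Poli and 6 of 19 of Pms2, but 15 of 18 of Rev1 and 35 of 37 of Rev3l. In Pms1 the 7 brighter probesets differed by -0.12 ± 0.061 and the 8 dimmer by -0.32 ± 0.13 (SD, n = 6 litters), and the dimmer ones were lower in 6 of 6 litters, by -0.20 ± 0.099. The same split gave, brighter first, -0.17 and -0.21 in Polh, -0.15 and -0.22 in Polk, -0.12 and -0.12 in Pms2, and -0.0086 and -0.12 in Msh6. It gave -0.12 and -0.11 in Poli, -0.084 and -0.098 in Rev1, and -0.044 and -0.070 in Rev3l. With dim probesets left out, Pms1 had no probeset left, Polh differed by -0.11 and Msh6 by 0.11.
Of the probesets of the 8 genes, 57 of 64 above the 95th percentile of the controls were below 0, 75 of 83 between it and the median control, and 8 of 9 under the median control. Over all genes the shares were 70.2%, 65.6% and 53.8%. Genes without any probeset above the 95th percentile had a median difference of 0.0034 and 48.3% were lower, against -0.046 and 80.8% for the rest. Pms1 belongs to the former group. The part of brightness in the differences was not tested.

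**Figure D3:**
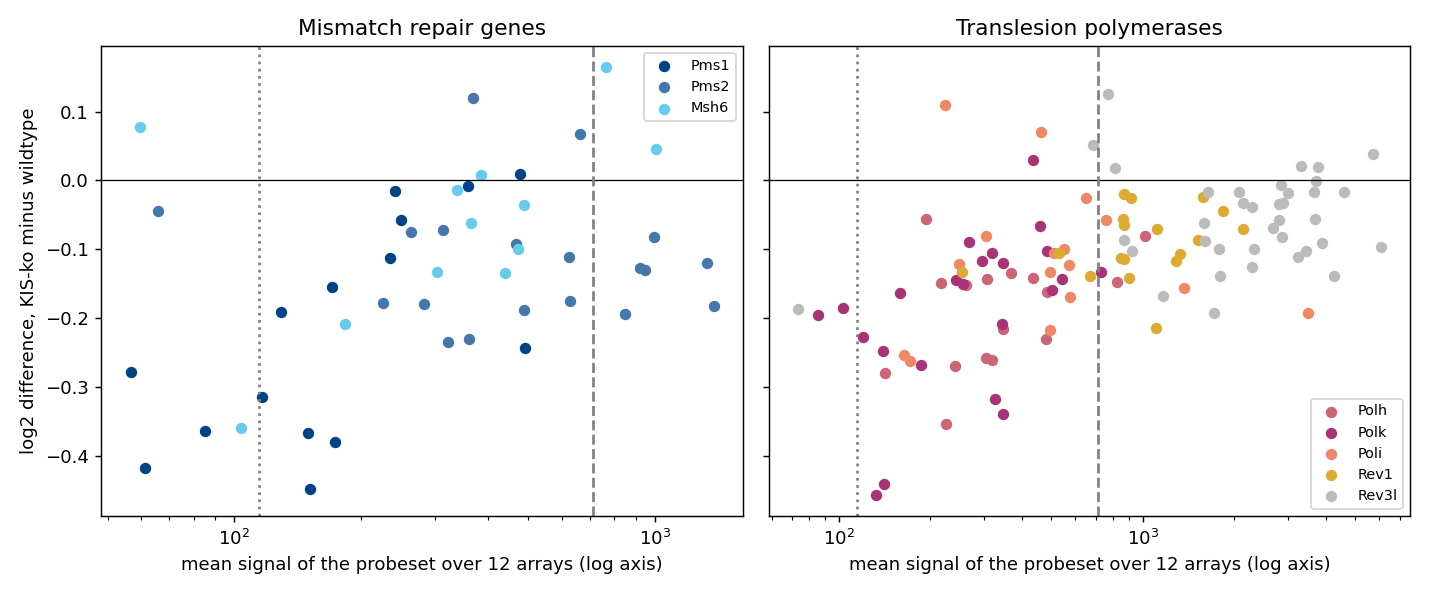
Difference of each kept probeset (KIS-ko minus wildtype, log2 scale) against its mean signal over 12 arrays on a log axis, for the mismatch repair genes (left) and the polymerases (right). Vertical lines are the median (dotted, 114) and the 95th percentile (dashed, 713) of the intron controls. Pms1 lies wholly to the left of the dashed line with its lowest values at signals under 200.

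The litters give a comparison that played no part in choosing the genes. The means of littermates spanned 0.37 in Polk, 0.35 in Rev1 and 0.32 in Poli, 0.22 in Msh6 and 0.21 in Pms1, and 0.13 in Pms2 and 0.11 in Polh and Rev3l. Litter 5 had the lowest mean in Polk, Poli, Pms1, Pms2 and Msh6, and the highest in Rev1. In limma's F test of the litters, Rev1 had the lowest p of the 8 (unadjusted p = 0.0446, adjusted p = 0.425), and it was the 1 gene of 8 under the unadjusted threshold, as were 11.3% of all genes. No gene on the arrays passed after adjustment (0% of 17279), and the adjusted p of the other 7 lay between 0.626 and 0.982. The span between litters was larger than the size of the difference between genotypes in all genes but Polh and Pms1, which were chosen for that difference. The span is a range of 6 means and the difference is a mean, so that they are unlike measures. They were close in Pms1 (0.21 and -0.22) and Pms2 (0.13 and -0.12).
Litters 4 and 6 were at opposite ends. In litter 4 all genes except Pms1 were higher in the KIS-ko brain, where the median gene was also higher, by 0.071. In litter 6, where the median gene differed by -0.11, all 8 were lower, from -0.46 in Msh6 to -0.17 in Rev3l. Without litter 4 the differences of Pms1, Polh and Polk were -0.25, -0.25 and -0.26, and without litter 6 they were -0.20, -0.14 and -0.14.

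**Figure D4:**
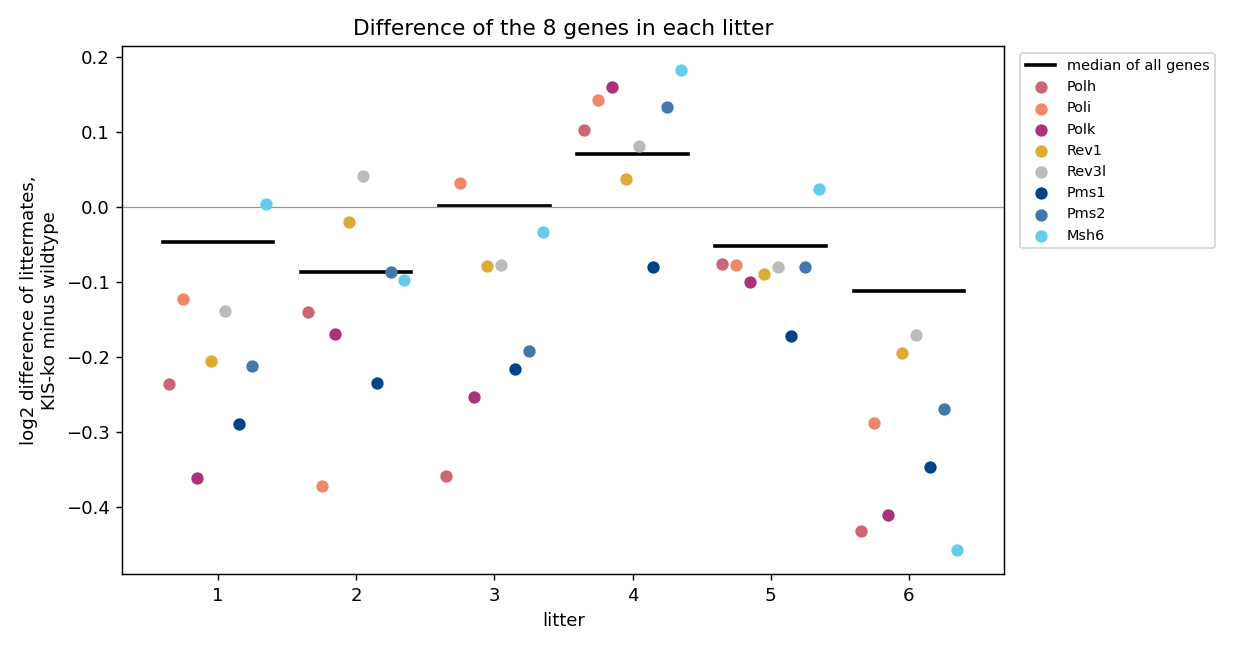
Difference between littermates (KIS-ko minus wildtype, log2 scale) of the 8 genes in each of the 6 litters, with black bars for the median of all genes in that litter. Pms1 lies below the bar in every litter, and in litter 4 it is the 1 gene below 0.

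Genes that work directly with the 8 were read from the same fit. Msh3, a paralog of Msh6 that recognizes larger loops, differed by -0.14 (standard error 0.061, unadjusted p = 0.0404, adjusted p = 0.685 from limma). Mlh3, a further MutL homolog, also differed by -0.14. On the polymerase side Mad2l2, the second subunit of polymerase zeta, was at -0.014, Pold3, an accessory subunit that it shares with polymerase delta, at -0.089, Rad18, the ligase that ubiquitinates PCNA, at -0.14, and Pcna at -0.044 through probesets listed at several places in the genome. None of these 6 genes was called by limma, with adjusted p-values of 0.685 to 0.933.
A list of 46 other genes of translesion synthesis and mismatch repair also holds these 6. It was written with earlier results of this series known. Of the 46, 38 were measured and 34 had a difference below 0 (median -0.059). The share below 0 was 69.8% over all genes, and 80.8% over genes with a probeset above the 95th percentile of the intron controls. At the unadjusted p 6 of 38 were lower and 0 higher, beside 4.34% and 1.82% of all genes, and 0 of 38 passed after adjustment. The mismatch repair list held 14 of 15 below 0 (median -0.087) and the translesion list 20 of 23 (median -0.054). The largest differences were those of Exo1, the exonuclease that removes the mismatched strand, at -0.30 (standard error 0.068, adjusted p = 0.528 from limma), and of Rpa3, a subunit of the single-strand binding protein, at -0.28 (standard error 0.079, adjusted p = 0.685 from limma), each lower in 5 of 6 litters. Neither has a probeset above the 95th percentile of the intron controls. Polb, the base excision repair polymerase, at -0.14, and Rpa2 at -0.11 were lower in 6 of 6 litters, and limma gave both an adjusted p of 0.685.

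**Figure D5:**
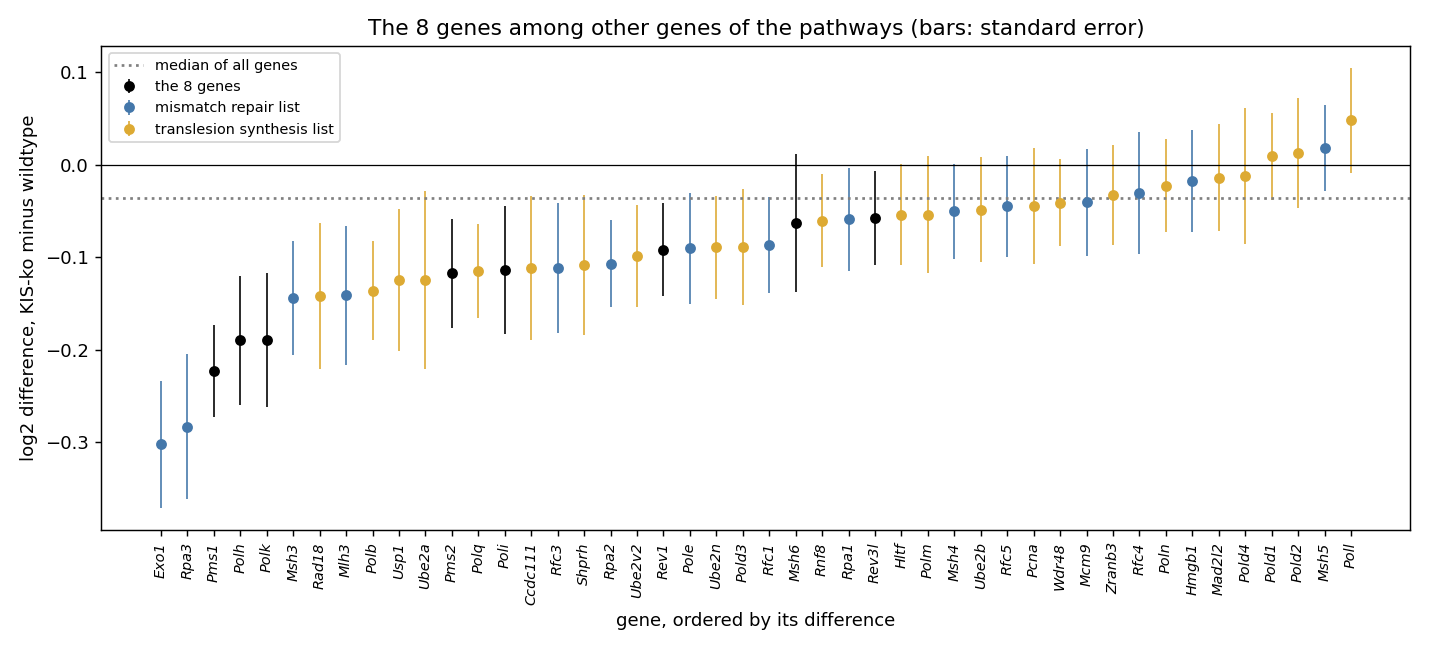
Differences (KIS-ko minus wildtype, log2 scale) with standard errors of the 8 genes (black) and of the 38 other measured genes of the mismatch repair (blue) and translesion synthesis lists (yellow), ordered by size. The dotted line is the median gene, -0.036. Pms1, Polh and Polk follow Exo1 and Rpa3 at the low end, and Msh6 and Rev3l lie among the middle of the list.

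Marker genes of dividing cells also had differences below 0. Of 10 listed, 9 were measured, all with a difference below 0 (median -0.10, from -0.18 in Ccnb1 to -0.047 in Mcm5), and 0 passed limma's test at the unadjusted p. Among all genes, 69.8% had a difference below 0, a share to set beside each count of markers in this paragraph. Their mean level was 8.46 to 8.86 in wildtype and 8.42 to 8.73 in KIS-ko brains, and differed by -0.10 ± 0.17 (SD, n = 6 litters). Radial glia and astrocyte genes were below 0 in 5 of 5, as were those of the endothelium, and neuronal genes in 3 of 4. The glial genes differed by -0.12 ± 0.12 (SD, n = 6 litters), with levels of 11.13 to 11.35 and 11.04 to 11.24, and 1 of them, Gfap, was lower at the unadjusted p. The neuronal genes, by which the tissue was checked, were at 12.85 to 12.97 in wildtype and 12.83 to 12.93 in KIS-ko brains, and differed by -0.037 ± 0.065 (SD, n = 6 litters). The lists of the oligodendrocyte lineage, microglia, endothelium, erythroid cells, choroid plexus and meninges differed by -0.065 to 0.011. None of the marker genes was called at the adjusted p. The part of dividing cells or glia in the differences of the 8 genes was not tested.

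The genes whose values followed Pms1 and Polh most closely were sought over the 12 arrays, with gene values centred on the median of the array and taken as deviations from the genotype means, among 14704 genes with at least 4 kept probesets. For Pms1 they were 4933421E11Rik (r = 0.898, Spearman's rho 0.923), Pick1 (r = 0.879) and Sgsh (r = 0.859). For Polh they were Aim2 (r = 0.885), Cep68 (r = 0.881) and Pdhx (r = 0.877). The points share the arrays and the centring, and these are the highest of 14704 values each, given as a description.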

How the data were processed

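The intensity (PLIER signal, linear scale) of each probeset on 12 arrays was deposited by the authors, who used quantile normalization of exons in the Affymetrix Expression Console. The genome build is not given in the sources used here. Main probesets with a gene symbol were kept where the relative standard deviation was at most 0.4 in each genotype, as in the methods, which rejected 7.20%. No 2 arrays were identical, and their correlations were 0.978 to 0.992.

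Gene values, single probesets, and probesets relative to their gene (genes with at least 3) were fitted with limma 3.58.1 (R 4.3.3) on log2(signal + 16), with litter terms and Benjamini-Hochberg adjustment. Litters were compared by limma's F test with genotype as covariate. The labels give the genotype, and the paired design follows the study, which used 6 pairs of +/+ and -/- littermates. Each wildtype brain was paired with the KIS-ko brain that follows it in the order of the samples. Deviations of littermates correlated at 0.272, -0.059, 0.136, -0.106, 0.473 and -0.114 in litters 1 to 6. The mean for brains of different litters was -0.019, and 3 of the 6 pairs were over 0.1. These correlations thus do not bear out every pair, and which brains form a pair was not tested. Tested on simulated data with 200 genes changed by 0.5, the gene fit found 88.5%, with 24 calls among unchanged genes. At the same change, 21.0% of single probesets and 34.5% of probesets relative to their gene were found. Python 3.11.15 with pandas 2.3.3, numpy 2.4.6 and matplotlib 3.10.9 served for the rest.

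Genes, lists and tests were chosen with earlier results of these data known. Named are the 8 genes, 6 direct partners, up to 4 further pathway genes of lowest unadjusted p that are not partners, Uhmk1 and the 3 genes most like Pms1 and Polh. Of the pathway lists, Primpol, Sprtn, Faap20, Atad5, Lig1, Rfc2, Setd2 and Fan1 had no value, and some genes of the lists are not reported here. Ccdc111, listed under that symbol, is an older name of Primpol. The alternatives were other pseudocounts, filters, scalings, summaries and moderation, the fit without litters, probesets matching 1 place, the methods' fold change, and each litter left out.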

Additional observations from a re-analysis of the deposited data

Results flagged for a closer look

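Of 28 groups of 6 brains examined (the 8 genes and their 6 partners in each genotype), 3 had a brain far from the others, where chance gives about 1 group in 20. The Polk value of the KIS-ko brain of litter 4 was 8.39, and the next highest KIS-ko value was 7.99. The Rev3l value of the wildtype brain of litter 3 was 11.13, and the next highest was 11.08. The Pold3 value of the KIS-ko brain of litter 4 was 10.24, and the next highest was 9.99. Without litter 4, the Polk difference was -0.26 with an adjusted p of 0.120 from limma, and the differences of all 8 genes were below 0.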

How the results depend on the processing

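The differences of Pms1 (-0.26 to -0.15 over 17 alternatives), Polh (-0.25 to -0.11), Polk (-0.26 to -0.12), Pms2 (-0.17 to -0.062), Poli (-0.17 to -0.058), Rev1 (-0.12 to -0.036) and Rev3l (-0.085 to -0.0014) kept their direction under every alternative run, the last 4 being nearest to 0 on arrays centred on their medians, and Pms1 has no value with dim probesets left out. Msh6 turned to 0.11 with dim probesets left out and, with single litters left out, lay between -0.11 and 0.016, the latter without litter 6. None of the 6 tested genes was called in any of them (adjusted p of 0.120 to 1.00). Their probesets were not called, and none of the 8 differed between litters, under the alternatives run for those tests, which leave out, among others, trend and robust moderation and the limit of 0.2. Without litter 2 Poli was at -0.062, and without litter 6 Rev3l was at -0.035. In the fit without the litter block, the gene calls stayed at 1, but calls of single probesets went from 10 to 26 and those of probesets relative to their gene from 2 to 18. The median difference of all genes was 0.020 after centring the arrays and 0.0017 after repeating the quantile normalization. Gene calls went from 1 to 5 with dim probesets left out or a relative standard deviation limit of 0.2, to 2 with trend and robust moderation, no such limit or a pseudocount of 64, and to between 1 and 2 with single litters left out. Single probeset calls were 16 after centring and 23 with a pseudocount of 64, and relative calls 0 with probesets matching 1 place only and 10 with that pseudocount. Litter calls went from 0 to 281 with dim probesets left out and to 29 with a pseudocount of 64. Without litter 4, 3281 genes were lower at an unadjusted p of 0.05, and without litter 6, 329, against 750 with all litters. The causes were not tested. The number of arrays limits the precision, and most signals of Pms1, Polk and Polh were within the range of the intron controls.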
